A study of Rattus norvegicus with 23 samples.

Results

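The interaction of maternal diabetes and maternal high-fat (HF) diet asks whether the newborn heart of a pup exposed to both differs from what the effects of the single exposures add up to. It was read in all 23 hearts of the series and over all 29170 probe sets, as the combination mean minus the HF diet mean minus the diabetes mean plus the control mean on a log2 scale. An interaction of 0 means that the single effects add up, a value above 0 that the combination lies above their sum, and a value below 0 that it lies below.

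RNA from whole hearts of Sprague Dawley rats on postnatal day 1 was hybridized to Affymetrix Rat Gene 1.0 ST arrays, 1 heart to an array. Dams of the 7 control hearts ate control diet and received citrate buffer, and dams of the 6 diabetes hearts ate the same diet and received 65 mg/kg streptozotocin on gestational day 14. Dams of the 5 HF diet hearts ate HF diet and received buffer, and dams of the 5 combination hearts ate HF diet and received streptozotocin. All dams began their diet 28 days or more ahead of mating and kept it through pregnancy. Streptozotocin kills the insulin-producing beta cells of the mother, so this is a late insulin deficiency, and the hyperglycemia was held in part with insulin. Both sexes are mixed in every group, and the sources used here do not say which heart is of which sex. By the code stems in their labels the 7 control hearts fall on 7 stems and the 6 diabetes hearts on 6. The 5 HF diet hearts fall on 3 stems and the 5 combination hearts on 3 stems. In number order the control and diabetes stems are mixed, while the combination and HF diet stems form separate runs. HF diet hearts 3, 4 and 5 share a stem, combination hearts 1 and 2 share one, and combination hearts 4 and 5 share another. Whether a stem is a litter is not said, so p-values measure the spread between hearts that may in part be littermates.

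A fetus of a diabetic mother receives extra glucose across the placenta and answers with insulin of its own, and an HF diet adds maternal lipids to this supply. At birth the heart turns from glucose and lactate toward fatty acids, and its mitochondria multiply. The mitochondrial ribosome translates the few proteins encoded by mitochondrial DNA, all of them parts of the respiratory chain or ATP synthase. In the same days the great arteries and valves lay down elastin, which fibulins and latent TGF-beta binding proteins assemble on microfibrils. Adrenomedullin and endothelin 1 are peptides of the vessel wall and the myocyte with opposite actions on vascular tone.

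The authors normalized the arrays and deposited log2 values in which every probe set is centred on its median heart, so a value is a distance from that median. Levels cannot be compared between genes, and a receptor gene that the heart may not use cannot be told from one it uses. In all, 3 hearts stood apart, and results were computed with and without them. Control heart 1 had a mean of 3.595 over 11 thymocyte and T cell genes and of 2.56 over 12 lung epithelium genes. Diabetes heart 5 had a mean of -1.26 over 11 atrial genes, and combination heart 1 had the widest spread over probe sets, an SD of 0.393 against 0.16 to 0.333 in the other hearts. In whole hearts, fewer cells of a type and less RNA per cell cannot be told apart.

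At the threshold used by the study, a change beyond 0.32 on the log2 scale and an unadjusted p under 0.05, 1265 of 29170 probe sets (4.34%) departed from the sum of the single effects in limma. Of these 518 (1.78%) lay above the sum and 747 (2.56%) below it. At an unadjusted p under 0.05 alone there were 1896, and after Benjamini-Hochberg adjustment 0, with a lowest adjusted p of 0.358. Each of the 71 named genes has an adjusted p of 0.672 in limma for the interaction, so none passes adjustment, and "past the threshold" refers to the study's threshold throughout. Counted by gene, with the probe set of smallest p, 551 of 14506 genes (3.8%) passed, 263 (1.81%) above and 288 (1.99%) below. The median standard error of an interaction was 0.147. With the 3 hearts left out 1924 probe sets passed, 801 above and 1123 below, and all 1265 kept their direction while 926 of them (73.2%) still passed. The 1265 were selected on all 23 hearts, most of which the smaller fit shares, so the kept direction is not a test. With 1 heart left out at a time the count fell to 623 for combination heart 1, to 797 for control heart 5 and to 830 for control heart 3, and rose to 2450 for combination heart 4 and to 2600 for diabetes heart 5. In all 23 of these fits 327 of the 1265 (25.8%) passed, 114 above and 213 below the sum.

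The same contrast is the difference between the effect of diabetes under HF diet and its effect under control diet, comparisons that share no heart. Under control diet, diabetes moved 89 probe sets past the threshold (0.305%), 65 higher (0.223%) and 24 lower (0.0823%). Under HF diet it moved 1679 (5.76%), 828 higher (2.84%) and 851 lower (2.92%), of which 698 also passed for the interaction. Neither effect had a probe set at an adjusted p under 0.05 in limma, where 469 and 3893 reached an unadjusted p under 0.05. Without the 3 hearts the counts were 193 and 708. Under control diet every heart has its own stem, and under HF diet several hearts share one. With hearts of a stem averaged the counts were 103 and 1042. The part of the stems in the difference between the diets was not tested. Omitting combination heart 1 left 576 under HF diet, omitting HF diet heart 3 left 1112 and omitting combination heart 4 gave 2995. Under control diet the omission of control heart 6, diabetes heart 4 or diabetes heart 5 gave 137, 136 and 140. Combination and HF diet hearts did not overlap in 479 probe sets (1.64%) and 250 genes (1.72%), 20 of the 71 named genes among them. The named genes were chosen by the interaction, which contains combination minus HF diet. Their lack of overlap, here and below, is therefore a description and not a test. Read the other way, HF diet moved 275 probe sets (0.943%) in the absence of diabetes and 886 (3.04%) in its presence, and the combination differed from control in 965 (3.31%).

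The 1265 probe sets were then sorted by where the combination lay. In 1041 (82.3%) it lay within 0.32 log2 of control although the single effects added up to something else, and these are called canceled. In 204 (16.1%) it lay more than 0.32 log2 from control on the side opposite to the sum, and these are called reversed. In 17 (1.34%) it lay beyond the sum on the same side, and in 3 (0.237%), none with a gene symbol, it kept the direction of the sum but fell short of it. Over all probe sets the same sorting gave 72% canceled, 2.05% reversed, 25.1% beyond and 0.854% short. The sum of the single effects is read from the same control, diabetes and HF diet hearts that enter the interaction with the opposite sign, so these shares are a description and not a test. In 988 of the 1041 canceled probe sets both single exposures lay on the same side of control, in 119 a single exposure was itself past the threshold, and in 483 the effect of diabetes under HF diet was. Among the 204 reversed probe sets a single exposure was past the threshold in 5, and the combination against control in 149. So reversed names a side of control, and most of these had no single effect past the threshold. The limit matters here: sorted by sign alone, 152 lay between control and the sum and 1096 on the other side of control. The combination lay within 0.05 log2 of the limit in 125 canceled and 93 reversed probe sets. Just inside the limit of the interaction stood Phf2 at -0.322033 and Prl8a5 at 0.3222, and just outside it Or1e31 at -0.321852 and a probe set of Nop16 at 0.321205.

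**Figure D1:**
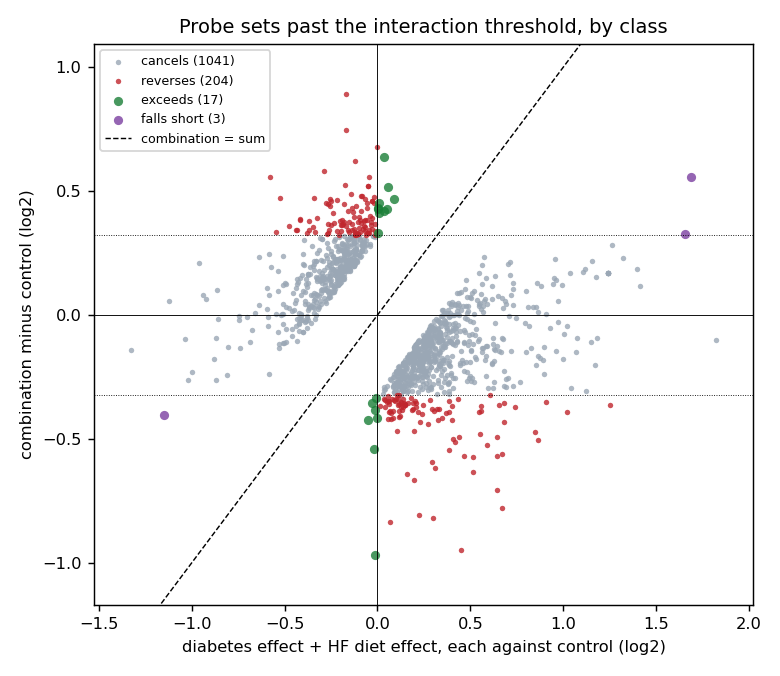
Combination minus control (vertical, log2) against the sum of the diabetes and HF diet effects (horizontal, log2) for the 1265 probe sets past the interaction threshold, colored by class; the dashed line is where the combination equals the sum and the dotted lines mark 0.32 log2 from control. The 1041 canceled points lie between the dotted lines, and the 17 points beyond the sum lie close to a sum of 0.

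Elastin and 3 other genes of the elastic fiber lay below the sum. Elastin (Eln), the recoil protein of arteries and valves, ran from -1.11 to 0.09 (median -0.22) in control and from -0.37 to 0.43 (median 0.14) in diabetes hearts. It stood at 0.41, -0.43, 0.58, 0.31 and 0.27 in HF diet hearts 1 to 5 and at -1.02, -0.26, -0.28, 0.06 and -0.19 in combination hearts 1 to 5. So 4 of 5 HF diet hearts lay above all 5 combination hearts, while control and combination hearts overlapped. Diabetes went with a log2 difference of 0.41 under control diet (standard error 0.20) and of -0.57 under HF diet (standard error 0.22), an interaction of -0.98 (standard error 0.30). Fibulin 5 (Fbln5), which guides elastin onto microfibrils, ran from -1.05 to 0.18 (median -0.24) in control and -0.32 to 0.44 (median 0.18) in diabetes hearts. Its HF diet hearts stood at 0.12, -0.40, 0.07, 0.57 and 0.46 and its combination hearts at -0.76, 0.05, -0.38, 0.08 and -0.10, and all 4 groups overlapped. The single exposures lay 0.54 and 0.57 above control and the combination 0.19 above it, an interaction of -0.93 (standard error 0.30).

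Of 21 measured genes of elastic fibers and microfibrils, 4 (19%) passed below the sum and 0 above, against 1.99% and 1.81% of all genes. In 17 of the 21 the interaction was below 0, and in Loxl1, Loxl2, Loxl3 and Efemp1 it was above 0, between 0.077 and 0.23. Besides Eln and Fbln5 these were Ltbp3, a latent TGF-beta binding protein, at -0.32 (standard error 0.099), and Fbln2, another fibulin, at -0.41, which was named after its value was seen. Ltbp3 missed the fold limit without any 1 of 10 hearts and was -0.26 without the 3 hearts. The median of the list was -0.21 where that of all genes was 0.0086, and it ran from -0.29 without HF diet heart 3 to -0.12 without combination heart 1. Among 21 interstitial collagens and matrix proteins 2 passed below and 0 above, with a median of -0.20, or -0.13 without combination heart 1. These were Col1a1 (-0.40), a chain of type I collagen, and Col5a1 (-0.34), which sets the caliber of collagen fibrils. Of 9 basement membrane genes 1 passed, Agrn (-0.43), a heparan sulfate proteoglycan, and all 9 lay below 0. Without combination heart 1 Col1a1 was -0.27 and no longer past the threshold.

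Smooth muscle genes gave 1 call. Myh11, the myosin heavy chain of smooth muscle, stood at 0.21, -0.35, 0.31, 0.28 and 0.31 in HF diet and -0.53, 0, -0.02, -0.01 and -0.18 in combination hearts, and ran from -0.85 to 0.16 (median -0.13) in control and -0.21 to 0.57 (median 0.06) in diabetes hearts. Its interaction was -0.65 (standard error 0.23), and without the 3 hearts -0.49, short of the p threshold. It was the only one of 14 smooth muscle and pericyte genes to pass, 12 of which lay below 0. The mean of this list was -0.40, 0.003, 0.08, -0.01 and -0.03 in the 5 combination hearts and -0.15 to 0.11 in the other 18, so only combination heart 1 lay outside the others. Its part in the elastic fiber values was not tested, beyond the values without that heart given above.

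Single genes of growth factor signaling lay below the sum, among them Fgfr2, Tgfbr1, Smad5 and Insr. Fgfr2, a fibroblast growth factor receptor, ran from -0.21 to 0.61 (median 0) in control and -0.34 to 0.49 (median 0.11) in diabetes hearts and stood at 0.12, 0.03, 0.10, 0.24 and 0.41 in HF diet hearts. In combination hearts it stood at -0.74, -0.45, -0.33, -0.24 and -0.15, below all 5 HF diet hearts. The diabetes effect was 0.01 under control diet and -0.56 under HF diet, an interaction of -0.57 (standard error 0.20), and -0.66 without the 3 hearts. Of 27 FGF ligands and receptors 1 passed below and 1 above, the latter Fgf23, a phosphate-regulating hormone, at 0.60 (standard error 0.28), which lost the threshold without any 1 of 14 hearts and was 0.39 without combination heart 2. The FGF list had a median of 0.053 with 16 of 27 genes above 0. The TGF-beta and BMP list had a median of -0.12, or -0.0091 without the 3 hearts. Without these hearts 2 of its genes passed above the sum and 2 below. With all hearts 2 of 29 genes (6.9%) passed, both below, against 1.99% below among all genes. They were Tgfbr1, the type I TGF-beta receptor (-0.36), and Smad5, which carries BMP signals to the nucleus (-0.38). For both, all 5 combination hearts lay below all 5 HF diet hearts. Without diabetes heart 3 Smad5 was -0.32 and short of the fold limit, and so was Tgfbr1 without control heart 5, diabetes heart 6 or combination heart 3. Insr, the insulin receptor, was the 1 of 31 insulin and IGF pathway genes to pass, at -0.47 (standard error 0.22). Its combination hearts stood at -0.73, 0, 0.11, -0.12 and -0.27, and its control hearts ran from -0.32 to 0.44. Insr lost the threshold without any 1 of 12 hearts and without the 3 hearts, where it was -0.40. Without combination heart 1 it was -0.34.

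Of 19 imprinted genes 3 (15.8%) passed below the sum and 0 above, against 1.99% and 1.81% of all genes. Meg3, a maternally expressed noncoding RNA, stood at 0.39, 0.08, 0.40, 0.63 and 0.38 in HF diet and -0.73, -0.51, -0.31, -0.20 and -0.32 in combination hearts, with no overlap. Control hearts spanned -1.27 to 0.46 (median 0) and diabetes hearts -0.58 to 0.72 (median -0.03), both wider than the gap. The interaction was -0.97 (standard error 0.34) and -1.11 without the 3 hearts. Plagl1, a zinc finger protein that controls other imprinted genes, had an interaction of -0.59, and H19, a noncoding RNA next to Igf2, of -0.42. H19 passed in 11 of 23 fits that left out 1 heart, with -0.27 without HF diet heart 3, and Meg3 and Plagl1 in all 23. The median of the imprinted list was -0.21, from -0.29 to -0.16 over those fits and -0.11 without the 3 hearts that stand apart, where 6 genes passed below. Per2, a repressor of the circadian clock, had an interaction of -0.61, with HF diet hearts at 0.34, 0.20, 0.25, 0.37 and 0 and combination hearts at -0.76, -0.45, -0.08, -0.08 and -0.35. It was 1 of 15 clock genes past the threshold.

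**Figure D2:**
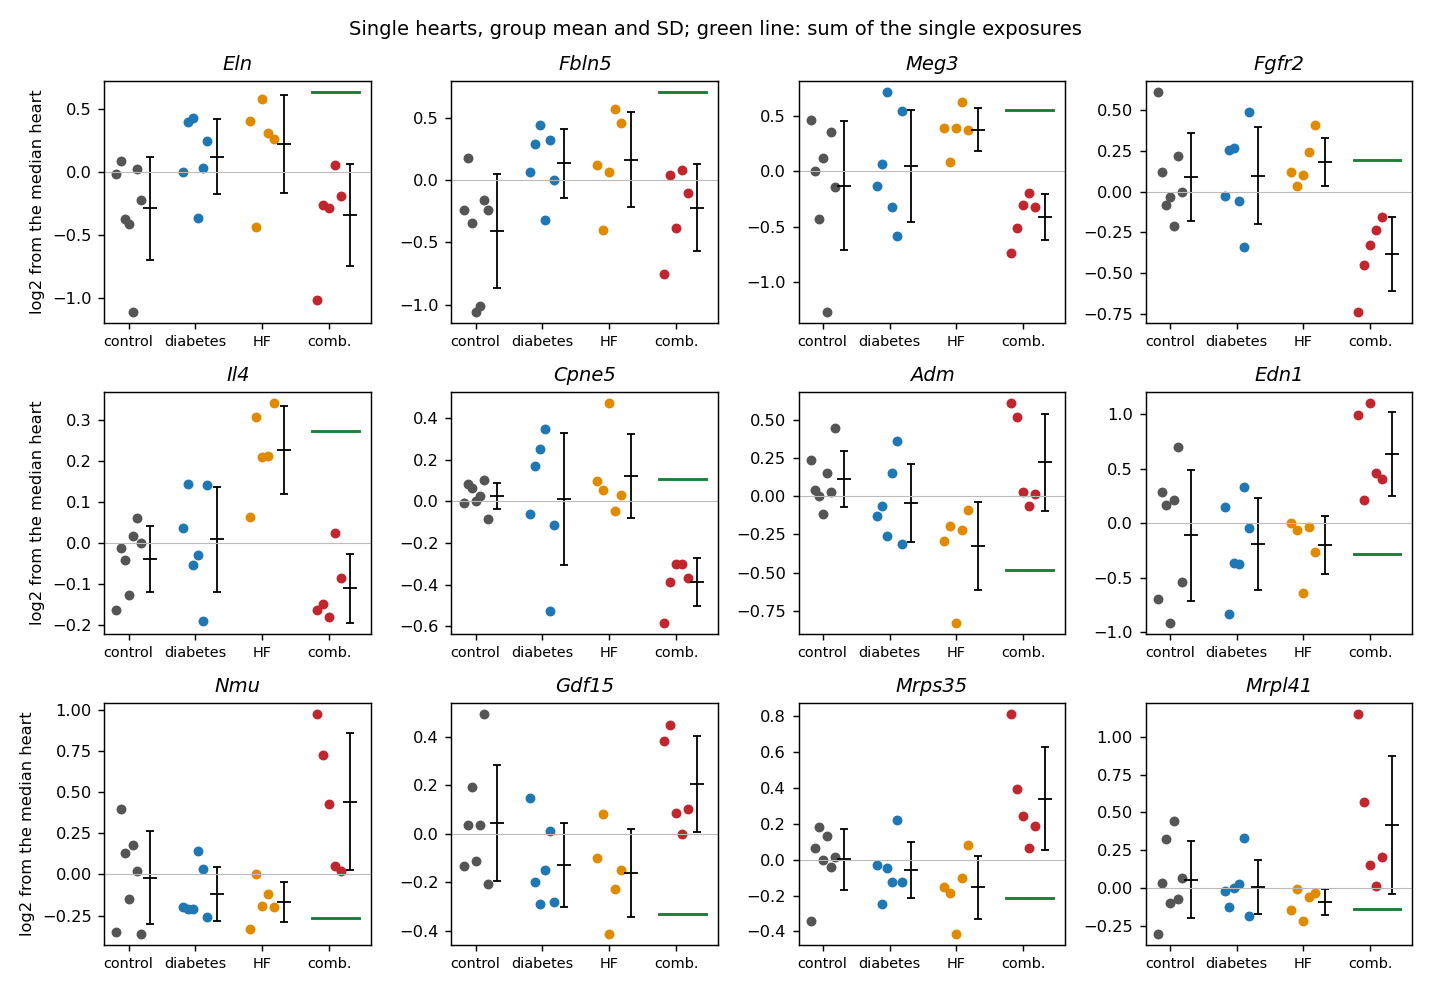
Values of 12 genes in single hearts (log2 distance from the median heart, vertical) by group, each point 1 heart, with the group mean and SD to its right; the green line in the combination column is the sum of the single effects. Combination hearts lie below that line for Eln, Fbln5, Meg3, Fgfr2, Il4 and Cpne5 and above it for Adm, Edn1, Nmu, Gdf15, Mrps35 and Mrpl41.

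Adm, Edn1, Nmu and Gdf15, which encode secreted peptides, lay above the sum as single genes. The lists nearest to them did not lie to 1 side. The endothelin system had a median of -0.034 with 2 of 5 genes above 0. Myocyte stress and hypertrophy had a median of 0.037 with 13 of 19 genes above 0. In the latter list 2 genes passed above and 1 below, 15.8% in either direction against 3.8% of all genes. Adrenomedullin (Adm), a vasodilator induced by low oxygen, ran from -0.11 to 0.44 (median 0.04) in control and -0.31 to 0.36 (median -0.10) in diabetes hearts. It stood at -0.30, -0.20, -0.83, -0.22 and -0.09 in HF diet and 0.61, 0.52, 0.03, -0.06 and 0.01 in combination hearts, and those groups did not overlap. HF diet alone differed from control by -0.44 and the combination by 0.11, an interaction of 0.70 (standard error 0.21). Combination hearts 1 and 2, which share a stem, carried the high values, and hearts 3 to 5 lay within the control range.

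Endothelin 1 (Edn1), a vasoconstrictor, spanned -0.91 to 0.70 (median 0.17) in control and -0.83 to 0.33 (median -0.21) in diabetes hearts. In HF diet hearts it stood at 0, -0.06, -0.64, -0.04 and -0.27 and in combination hearts at 0.99, 0.21, 1.102, 0.46 and 0.41. All 5 combination hearts lay above all 5 HF diet hearts, and the control range reached into the combination range. Both single exposures lay near control (-0.08 and -0.09) and the combination 0.75 above it, an interaction of 0.92 (standard error 0.36). It was the only one of 5 endothelin system genes past the threshold.

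Neuromedin U (Nmu), a peptide that contracts smooth muscle, ran from -0.36 to 0.40 (median 0.02) in control and -0.26 to 0.14 (median -0.20) in diabetes hearts, and stood at -0.33, 0, -0.19, -0.12 and -0.20 in HF diet and 0.97, 0.73, 0.43, 0.05 and 0.02 in combination hearts. The lowest combination heart stood just above the highest HF diet heart. Its interaction was 0.71 (standard error 0.21). Gdf15, a cytokine that cells release under mitochondrial and metabolic stress, ran from -0.21 to 0.49 (median 0.04) in control and -0.29 to 0.15 (median -0.17) in diabetes hearts. It stood at -0.10, 0.08, -0.41, -0.23 and -0.15 in HF diet and 0.38, 0.45, 0.09, 0 and 0.10 in combination hearts, which overlapped. The single exposures differed from control by -0.17 and -0.21 and the combination by 0.16, an interaction of 0.54 (standard error 0.17). Adm, Edn1, Nmu and Gdf15 passed in all 23 fits that left out 1 heart.

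Among genes of excitation, Kcne1, the auxiliary subunit of the slow delayed rectifier potassium channel, had HF diet hearts at -0.07, -0.04, -0.27, -0.35 and -0.12 and combination hearts at 1.66, 1.18, 1.76, 0.08 and 0.01. Combination hearts 1 to 3 were high and hearts 4 and 5 lay at the median. Diabetes heart 5 stood at 1.45. The interaction was 1.06 (standard error 0.46) and missed the threshold when diabetes heart 2 or 4 or combination heart 1 or 3 was omitted, at 0.86 in the last case. Cacna2d2, an auxiliary subunit of calcium channels, had an interaction of -0.55, with combination hearts at -0.90, -0.27, -0.23, 0.01 and -0.18. Rrad, a small GTPase that restrains L-type calcium channels, had an interaction of 0.99 and passed in 11 of 23 fits that left out 1 heart. Of 83 potassium channel genes 1 passed, and the list median was 0.0066. Myh7, the slow myosin heavy chain, was the 1 of 19 sarcomere genes past the threshold, at -0.34, and was -0.27 and short of the threshold without the 3 hearts, and -0.22 without combination heart 1 alone.

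Genes of the mitochondrial ribosome gave 10 calls, all above the sum. Of 69 measured genes 10 (14.5%) passed above and 0 below, against 1.81% above among all genes, and 68 of 69 had an interaction above 0. The median was 0.29 over the list, where 52% of all genes lay above 0. Mrps35, a protein of the small subunit, ran from -0.34 to 0.18 (median 0.01) in control and -0.25 to 0.22 (median -0.09) in diabetes hearts. It stood at -0.15, -0.19, -0.41, -0.10 and 0.08 in HF diet and 0.81, 0.40, 0.24, 0.06 and 0.19 in combination hearts, where only combination heart 4 reached down into the HF diet range. Diabetes went with -0.06 under control diet and 0.49 under HF diet, an interaction of 0.55 (standard error 0.16). Mrpl41, a protein of the large subunit, stood at -0.15, -0.01, -0.22, -0.06 and -0.03 in HF diet and 1.15, 0.57, 0.15, 0.01 and 0.21 in combination hearts, which did not overlap, with an interaction of 0.56 (standard error 0.22). For Mrpl40, also of the large subunit, the values were -0.12, 0, -0.36, -0.06 and 0.06 and 0.66, 0.40, 0.30, 0.09 and 0.35, again without overlap, with 0.47 (standard error 0.19). The 2 probe sets each of Mrpl40 and Mrpl41 had interactions of the same sign, at 0.561 and 0.556 for Mrpl41. Probe sets of a pair could read the same RNA, so this is not separate support.

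The list mean in each heart shows which hearts carry this. It was 0.66, 0.30, 0.13, -0.0002 and 0.14 in combination hearts 1 to 5 and -0.15, 0.02, -0.14, -0.06 and 0.07 in HF diet hearts 1 to 5. Control and diabetes hearts ran from -0.25 to 0.30. Control hearts 3 and 5 and diabetes heart 5 lay above 3 of the 5 combination hearts. Without combination heart 1 the list median was 0.19, and over all single omissions it was at most 0.36. Without the 3 hearts that stand apart it was 0.28, with 18 of 69 genes past the threshold above and 0 below. Nuclear genes of the respiratory chain leaned the same way with fewer calls, where 1.81% of all genes passed above. Of 33 complex I subunits 3 passed above and 0 below (median 0.21, or 0.14 without combination heart 1), among them Ndufb10 (0.36) and Ndufb9 (0.33). Of the 23 fits that left out 1 heart Ndufb10 passed in 18 and Ndufb9 in 15, with 0.20 for Ndufb9 without HF diet heart 3. Of 46 genes of complexes II to V 3 passed above and 0 below (median 0.12), among them Cox5b (0.34), a subunit of cytochrome c oxidase whose combination and HF diet hearts did not overlap. Etfa (0.35), which hands electrons from fatty acid oxidation to the chain, was the 1 of 37 fatty acid oxidation and PPAR target genes to pass. Without combination heart 1 Cox5b was 0.28 and Etfa 0.27, both under the fold limit. Each also missed the limit when some other single hearts were left out.

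Promoters of the mitochondrial ribosome genes past the threshold are shown because these genes lay above the sum together. They are the RefSeq sequences of the GRCr8 build from 250 bases before to 50 after the start of the gene, printed 5′ to 3′ on the strand of the gene. Capitals mark the core motif of NRF1, a transcription factor of nuclear genes for mitochondria, spelled GCGC, then A and any base, then GCGC, and searched on both strands. Of the 10 genes 8 had an entry, and the motif was found in 2 of these 8, Mrps18b and Mrpl30, which are shown for that reason with Mrpl40, which has no match. Mrps18b (interaction 0.57) and Mrpl30 (0.38) were chosen after their values and sequences were seen, and passed in 11 and 8 of the 23 fits that left out 1 heart.
Mrps18b, chr20:2842756-2843055, plus strand: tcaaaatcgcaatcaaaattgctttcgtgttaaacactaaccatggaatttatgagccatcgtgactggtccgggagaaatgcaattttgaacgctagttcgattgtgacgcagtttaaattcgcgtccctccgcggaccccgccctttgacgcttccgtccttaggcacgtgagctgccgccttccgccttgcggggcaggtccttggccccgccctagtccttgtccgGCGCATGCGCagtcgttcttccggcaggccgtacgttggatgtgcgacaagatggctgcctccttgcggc
Mrpl30, chr9:47620977-47621276, plus strand: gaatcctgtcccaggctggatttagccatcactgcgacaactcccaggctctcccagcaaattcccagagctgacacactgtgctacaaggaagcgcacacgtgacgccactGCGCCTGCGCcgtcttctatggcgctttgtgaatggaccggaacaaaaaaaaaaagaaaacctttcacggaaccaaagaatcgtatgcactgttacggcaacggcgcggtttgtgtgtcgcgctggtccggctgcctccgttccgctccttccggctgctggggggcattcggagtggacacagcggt
Mrpl40, chr11:95637501-95637800, plus strand: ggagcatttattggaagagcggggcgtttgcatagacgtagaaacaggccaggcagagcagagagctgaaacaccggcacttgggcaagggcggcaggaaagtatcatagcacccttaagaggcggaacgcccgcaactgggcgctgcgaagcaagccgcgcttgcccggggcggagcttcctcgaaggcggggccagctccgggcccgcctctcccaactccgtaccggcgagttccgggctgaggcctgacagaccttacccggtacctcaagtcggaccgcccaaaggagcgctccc
Over the 55 measured genes of the list with an entry 9 (16.4%) held the motif, and over the 59 cytosolic ribosomal protein genes 6 (10.2%). Over 15 chromatin regulators with long transcripts, a list that lay below the sum and is described next, it was 2 (13.3%). Genes on the array held it in 7.39% and all 27457 promoters in 4.71%. A match is a run of letters and not a measured site. In Mrps18b it starts 20 bases before the start of the gene and in Mrpl30 138 bases before it.

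Lists of ribosomal, proteasome and heat shock genes had medians above 0 like the mitochondrial ribosome, and a list of chromatin regulators with long transcripts had one below 0. Of 71 cytosolic ribosomal protein genes 3 (4.23%) passed above and 0 below, against 1.81% and 1.99% of all genes. The median of these genes was 0.15 (0.093 without combination heart 1). Their named members Rpl9, Rpl24 and Rps3 have near-identical copies in the genome that probes could share, so their values are uncertain. Of 39 proteasome subunits 1 passed, Psmd14 (0.46), a deubiquitinase of the proteasome lid, with a list median of 0.195. Without combination heart 1 the median was 0.11 and Psmd14, at 0.33, no longer passed. The heat shock list had 0 of 10 past the threshold and a median of 0.27, which was 0.12 without combination heart 1, where its mean was 1.06. Chromatin regulators with long transcripts, a list of 20 measured genes, had 4 (20%) below the sum and 0 above, against 1.99% and 1.81% of all genes. All 20 lay below 0, with a median of -0.35. These 4 were Kmt2d, a histone H3 lysine methyltransferase (-0.62), Ep400 (-0.45) and Smarca2 (-0.37), ATPases of chromatin remodelers, and Arid1a (-0.44), a remodeler subunit named after its value was seen. The list mean was -0.74, -0.24, -0.27, -0.01 and -0.13 in combination hearts and -0.37 to 0.31 in the other 18, and the median was -0.23 without combination heart 1. Kmt2d missed the threshold when diabetes heart 6, HF diet heart 1 or 3 or combination heart 1 was omitted, and Ep400 when combination heart 1 was. Smarca2 passed in 9 of the 23 fits that left out 1 heart, with -0.24 without combination heart 1, and Arid1a in 10. The sources used here give no RNA quality for single hearts, and the part of transcript length or RNA quality in these lists and in the mitochondrial ribosome was not tested. In combination heart 1, control heart 5 and diabetes heart 5 the mitochondrial ribosome mean was 0.66, 0.25 and 0.30 and the chromatin regulator mean -0.74, -0.32 and -0.37.

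**Figure D3:**
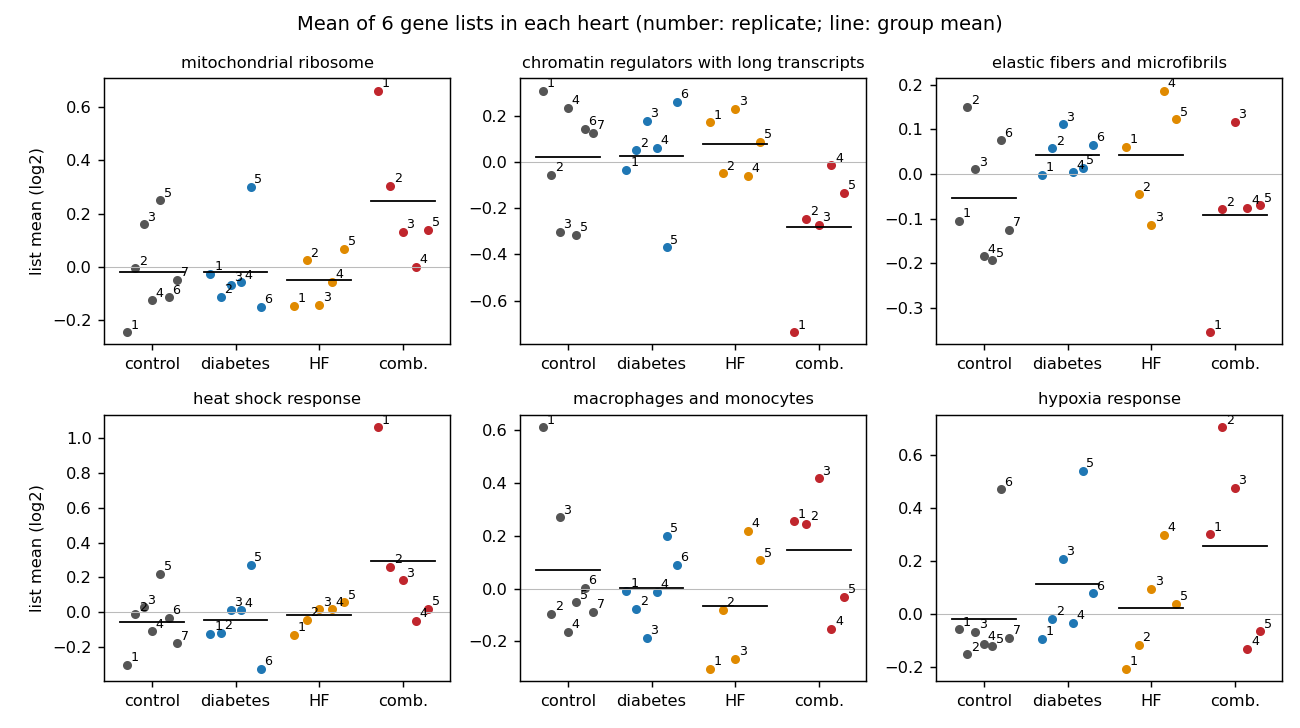
Mean of 6 gene lists in each heart (log2 distance from the median heart, vertical) by group, with the replicate number beside each point and the group mean as a line. Combination heart 1 is the highest heart for the mitochondrial ribosome (0.66) and heat shock (1.06) and the lowest for chromatin regulators (-0.74), and combination hearts 4 and 5 lie near 0 in most panels.

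Il4, a cytokine of type 2 immunity, had the smallest p-value of the named genes. It ran from -0.16 to 0.06 (median -0.01) in control and -0.19 to 0.14 (median 0.004) in diabetes hearts and stood at 0.06, 0.31, 0.21, 0.21 and 0.34 in HF diet and -0.16, -0.15, -0.18, 0.03 and -0.08 in combination hearts, and the latter groups did not overlap. HF diet alone differed from control by 0.26 and the combination by -0.07, an interaction of -0.38 (standard error 0.095). Zfp612, a zinc finger protein, had the same order, with HF diet hearts at 0.21, 0.14, 0.47, 0.05 and 0.34 and combination hearts at 0.001, -0.17, -0.29, -0.16 and -0.02, and -0.41 (standard error 0.12). In both genes diabetes alone differed little from control, by 0.05 and 0.04. Or9s15, Or13a26 and Or10j7, olfactory receptor genes, were at -0.44, -0.51 and -0.41. The 1240 olfactory and vomeronasal receptor genes together had 12 past the threshold above and 18 below (0.968% and 1.45%) and a median of -0.015.

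In Ntrk3 and Lrrtm3 both single exposures lay above control and the combination near it. Ntrk3, the receptor of neurotrophin 3, ran from -0.74 to 0.36 (median -0.17) in control and -0.02 to 0.35 (median 0.17) in diabetes hearts, and stood at 0.29, -0.15, 0.04, 0.76 and 0.13 in HF diet and -0.39, -0.04, -0.32, -0.06 and 0.003 in combination hearts. The single exposures differed from control by 0.34 and 0.37 and the combination by -0.002, an interaction of -0.71 (standard error 0.21). Lrrtm3, a synaptic adhesion protein, had single effects of 0.35 and 0.33, a combination of 0.06 and an interaction of -0.63 (standard error 0.16). Its HF diet hearts stood at 0.29, -0.01, 0.10, 0.32 and 0.19 and its combination hearts at -0.36, -0.05, -0.20, 0.14 and -0.02, with overlap. Wfdc6b, of a family of protease inhibitors, had 4 combination hearts between -0.43 and -0.34 and heart 4 at 0.34, with -0.61 (standard error 0.17). Miox, which opens the ring of myo-inositol, was at -0.33 (standard error 0.098), but under the fold limit without the 3 hearts (-0.28) and without any 1 of 6 hearts.

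Metabolic enzymes stood on both sides. Acox3, a peroxisomal oxidase of branched-chain fatty acids, had an interaction of -0.39 (standard error 0.11), with HF diet hearts at -0.02, -0.04, 0.20, 0.18 and 0.23 and combination hearts at -0.44, -0.18, 0.01, -0.09 and -0.06, and missed the fold limit without combination heart 1. Bco2, a mitochondrial enzyme that cleaves carotenoids, had a difference of -0.33 between HF diet and control hearts and an interaction of 0.38 (standard error 0.12), which was 0.32 and short of the limit without HF diet heart 3. Galk2, a sugar kinase, followed the same order, with HF diet hearts at -0.16, -0.02, -0.41, -0.17 and -0.29, combination hearts at 0.24, 0.16, -0.18, 0.11 and 0.25 and 0.42 (standard error 0.13). Slc15a4, a lysosomal peptide and histidine transporter, ran from -0.23 to 0.38 (median 0.02) in control and -0.68 to 0.08 (median -0.13) in diabetes hearts. It stood at 0, -0.36, -0.10, 0.10 and -0.04 in HF diet and 0.57, 0.60, 0.25, 0.14 and 0.06 in combination hearts, with 0.59 (standard error 0.19). Zswim2, a zinc finger protein, completes the 8 smallest p-values above the sum at 0.34, and was 0.28 without the 3 hearts.

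**Figure D4:**
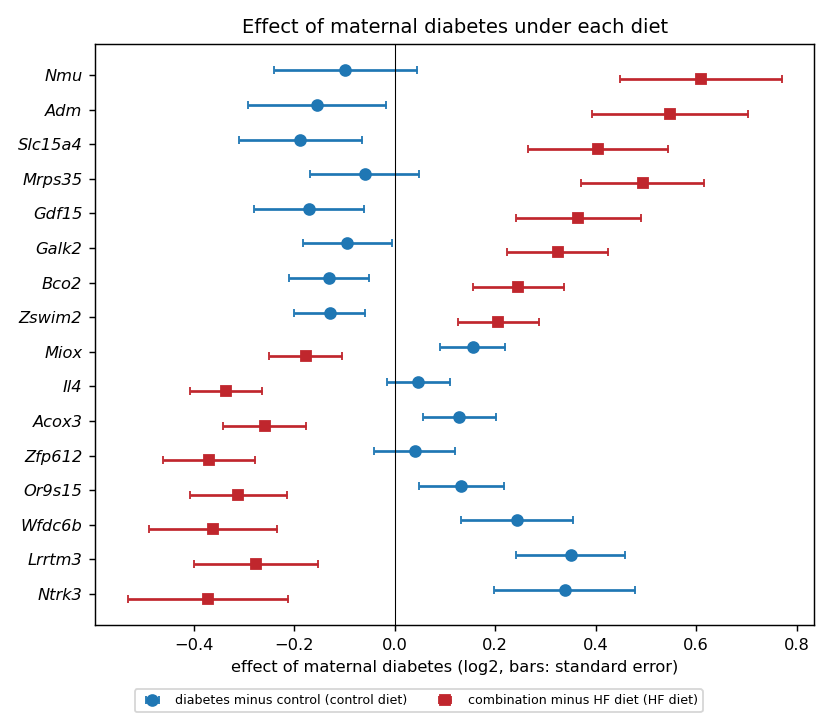
Effect of maternal diabetes (horizontal, log2, bars are standard errors) under control diet (circles, diabetes minus control) and under HF diet (squares, combination minus HF diet) for the 8 genes with the smallest interaction p above the sum and the 8 below. The 2 effects lie on opposite sides of 0 for all 16 genes, which were chosen by the difference between them.

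Cpne5, a calcium-dependent membrane-binding protein, was among the genes classed as reversed, though its diabetes effect under control diet was near 0. It ran from -0.09 to 0.10 (median 0.03) in control and -0.53 to 0.35 (median 0.06) in diabetes hearts and stood at 0.10, 0.06, 0.47, -0.05 and 0.03 in HF diet hearts. The combination hearts stood at -0.58, -0.39, -0.30, -0.30 and -0.37, below all control and all HF diet hearts, while 1 diabetes heart lay at -0.53. The diabetes effect was -0.01 under control diet and -0.51 under HF diet, an interaction of -0.50 (standard error 0.16), and -0.55 without the 3 hearts. Across all probe sets the 5 combination hearts lay above all 18 others in 1 (0.00343%) and below all others in 0. That probe set belongs to Srp14, a protein of the signal recognition particle, whose interaction of 0.29 was under the fold limit.

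Genes beyond the sum were few. Mrps10, of the small mitochondrial ribosomal subunit, lay near control after either single exposure (0.02 and 0.02) and 0.42 above it in the combination, with hearts at 0.96, 0.35, 0.20, 0.13 and 0.24. Tstd3, a protein with a rhodanese domain, had combination hearts at 1.255, 0.74, 0.19, 0.10 and 0.25 and an interaction of 0.60. Safb, a nuclear scaffold protein, and Sesn3, a stress-induced sestrin, lay below, at -0.32 and -0.41. Without combination heart 1 Mrps10 was 0.24. These 4 genes passed in 9 to 13 of the 23 fits that left out 1 heart. In all 17 probe sets the combination differed from control past the threshold and no single exposure did. Since their single effects add up to about 0, their class turns on a small sum.

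Macrophage genes gave 4 calls above the sum. Of 30 macrophage and monocyte genes 4 (13.3%) passed above the sum and 0 below, against 1.81% and 1.99% of all genes. The list median was 0.20, with 28 of 30 above 0. Tyrobp, the signaling adaptor of myeloid receptors, stood at -0.48, -0.18, -0.63, -0.03 and 0.19 in HF diet and 0.93, 0.54, 0.33, -0.26 and 0 in combination hearts, with 0.65 (standard error 0.27). The other calls were Cd53, a leukocyte tetraspanin (0.69), Cybb, the catalytic subunit of the phagocyte NADPH oxidase (0.41), and Lyz2, a lysozyme (1.14), the last named after its value was seen. Over the 23 fits that left out 1 heart Lyz2 passed in 10, Cd53 in 16, Tyrobp in 18 and Cybb in 19, and Tyrobp and Cybb did not pass without the 3 hearts, at 0.44 and 0.33. The mean of the list was 0.26, 0.24, 0.42, -0.15 and -0.03 in combination hearts, -0.30, -0.08, -0.27, 0.22 and 0.11 in HF diet hearts and 0.61 in control heart 1. Over the single omissions the macrophage list median ran from 0.16 without HF diet heart 1 to 0.30 without combination heart 4. Members that did not pass included the macrophage markers Cd68 (0.036), Adgre1 (0.062), Csf1r (0.11) and Mrc1 (-0.016). Tyrobp, Cd53 and Cybb still passed without control heart 1. This is not a test, since the other hearts of that fit also chose them, and the part of control heart 1 was not tested. Control hearts enter the interaction with a plus sign. All 11 thymocyte genes had an interaction above 0, with a median of 0.55 that became -0.028 without control heart 1.

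Among 42 interferon-induced genes 2 (4.76%) passed above and 1 (2.38%) below, against 1.81% and 1.99% of all genes. Rtp4 (0.62) and Usp18 (0.94), the latter a brake on interferon signaling, lay above, and Ifit3 (-0.41), an antiviral protein, below. Rtp4 passed in all 23 fits that left out 1 heart and Usp18 in 12. Reg3g, an antimicrobial lectin, ran from -0.06 to 1.28 (median 0.17) in control and -0.83 to 1.05 (median 0.05) in diabetes hearts. It stood at -0.56, -0.33, -0.65, -0.998 and -0.98 in HF diet and 0.96, 0.24, 0.97, -0.47 and -0.57 in combination hearts. HF diet alone differed from control by -1.07, and the interaction was 1.19 (standard error 0.45). Combination hearts 4 and 5 lay in the HF diet range and hearts 1 to 3 above it.

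The lists that follow had 0 to 2 calls each, where 3.8% of all genes passed in either direction. So few calls are given as single genes, and no list was tested against the background. Of 24 glycolysis genes 0 passed (median 0.071, or -0.012 without HF diet heart 1). Of 32 immediate early genes 0 passed (median 0.077, or -0.026 without combination heart 3), and of 19 genes of myocyte calcium cycling 0 (median -0.12, or -0.062 without combination heart 1). Of 21 hypoxia response genes 1 (4.76%) passed, Adm, and the list median of 0.16 ran from 0.034 without combination heart 2 to 0.25 without HF diet heart 4. The hypoxia list mean was 0.30, 0.70, 0.47, -0.13 and -0.07 in combination hearts 1 to 5. Of 36 cell cycle genes 1 passed, Foxm1, a transcription factor of mitosis (-0.46). Slc7a1, a cationic amino acid transporter (-0.42), and Gdf15 were the 2 calls among 30 genes of the integrated stress response. Tie1, an endothelial receptor (-0.37), was the 1 call among 15 endothelial genes, and was -0.29 and short of the threshold without combination heart 1. Scn11a, a sodium channel (0.36), and Cacna2d2 were the 2 calls among 35 sodium and calcium channel genes. Erythroid genes had 0 calls of 17, and their mean in combination heart 2 was 1.15. With the erythroid mean as a covariate all 71 named genes still passed, which is not a test, since the same hearts chose them. The counts for diabetes moved with this covariate, from 89 to 292 under control diet and from 1679 to 716 under HF diet. The part of red cells was not tested.

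**Figure D5:**
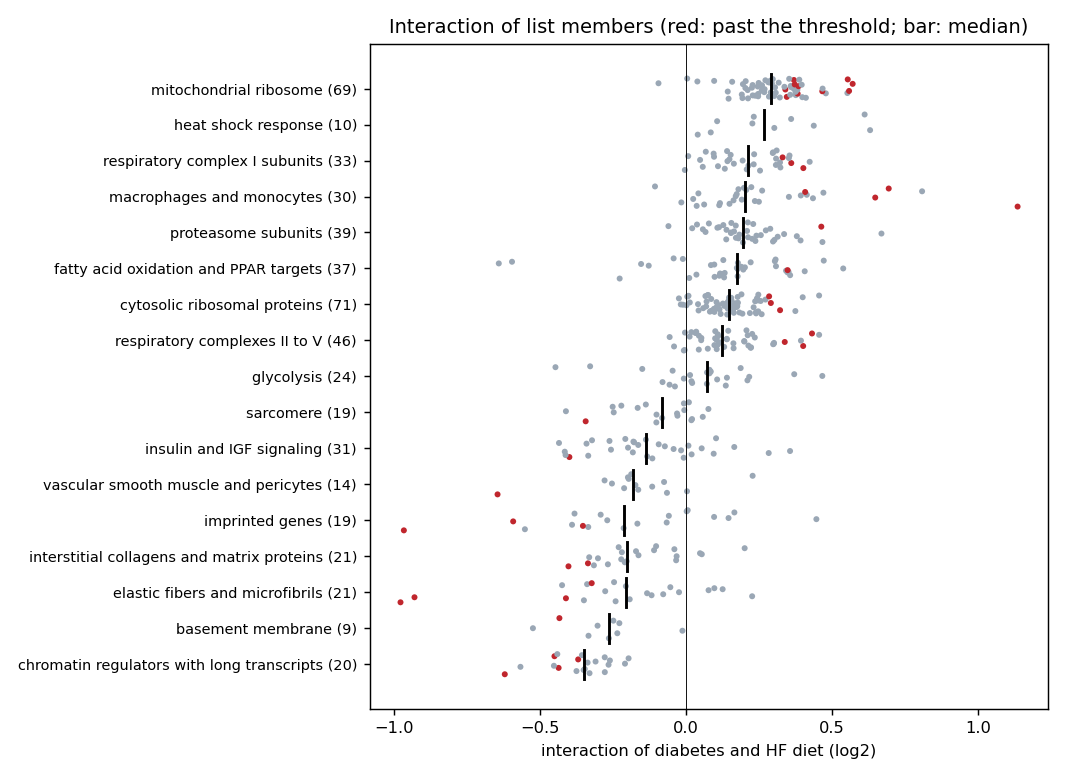
Interaction of the measured members of 17 gene lists (horizontal, log2, mean over a gene's probe sets), each point 1 gene, red where its probe set of smallest p is past the threshold, with the list median as a bar and the number of measured genes in parentheses. Medians run from -0.35 for chromatin regulators to 0.29 for the mitochondrial ribosome.

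The combination hearts were not alike. Over the 263 genes past the threshold above the sum, the mean value was 0.60, 0.32, 0.16, 0.01 and 0.14 in combination hearts 1 to 5. Over the 288 genes below the sum it was -0.54, -0.23, -0.18, -0.03 and -0.10. HF diet hearts ran from -0.28 to -0.02 and from 0.04 to 0.22. Hearts 1 and 2 share a stem and lay farthest out, and hearts 4 and 5 share another and lay nearest 0, so with 3 stems, stem and heart cannot be told apart. These genes were chosen by the same hearts, and the means only describe which hearts set them apart. When hearts of a stem were averaged before the fit, 819 probe sets passed, 40.3% of them above the sum against 40.9% with single hearts. Of the 71 named genes 28 passed in all 23 fits that left out 1 heart, and 36 after averaging by stem.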

How the data were processed

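RNA of 23 rat hearts was measured on Affymetrix Rat Gene 1.0 ST arrays. The authors normalized the arrays in GeneSpring and deposited 1 table of log2 values with each probe set centred on its median over the 23 arrays; the sources used here do not give the normalization algorithm or the filter limits. No level or depth is held in these values, and the number of hearts limits the precision. Groups came from the sample labels. Gene symbols came from the platform annotation: 15310 of 29170 probe sets had 1 symbol, 323 several and 13537 none, and 15279 were matched to RefSeq with no symbol changed. The values of 198 probe sets repeat those of an earlier one.

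A mean per group was fitted with limma 3.58.1 in R 4.3.3 (lmFit and eBayes, 19 residual and 3.56 prior degrees of freedom), with the interaction as a contrast and Benjamini-Hochberg adjustment over all probe sets. Past the threshold means a fold change beyond 1.25 and an unadjusted p under 0.05, the limits the study used. The combination was called beyond the sum, short of it, canceled (within 1.25-fold of control) or reversed. List medians used the mean over a gene's probe sets, and calls its probe set of smallest p. Named genes were the 8 above and the 8 below the sum with the smallest p, the 4 of smallest p in each class, and up to 3 of smallest p past the threshold in each of 43 gene lists, 71 genes in all. The members and lists were chosen with earlier results of these data known.

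The fit was tested on simulated data. Tables and figures were made with Python 3.11.15, pandas 2.3.3, numpy 2.4.6 and matplotlib 3.10.9. Alternatives were array weights, a robust fit, an unequal-variance (Welch type) contrast, quantile normalization, arrays scaled to one SD, an erythroid covariate, code stems averaged or as a random block, the replicate number as a block, identical or unnamed probe sets left out, classes by sign, and each heart left out. Leaving out the 3 hearts that stand apart, and replicates 1 to 5 without a block, were chosen after seeing the data.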

Additional observations from a re-analysis of the deposited data

Results flagged for a closer look

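A heart was looked at again where its gap to the nearest heart of its group, divided by the range of the group, passed Dixon's limit, which chance passes in about 1 in 20 groups. Of 284 groups of hearts over the 71 named genes 19 passed, and of 172 over the 43 list means 22. In the combination group heart 1 stood apart for Zswim2 (0.414), Uqcc6 (0.866), Mrps10 (0.956), Agrn (-0.844) and Myh7 (-0.707), and heart 4 for Wfdc6b (0.344). In the HF diet group heart 3 stood apart for Adm (-0.828), Cpne5 (0.473), Ndufb9 (-0.675) and H19 (0.781), heart 2 for Myh11 (-0.35) and heart 4 for Atp5mg (-0.175). In the diabetes group heart 5 stood apart for Kcne1 (1.454), Smarca2 (-0.365) and Ndufa2 (0.361), and heart 3 for Slc7a1 (0.713). In the control group heart 1 stood apart for Mrps35 (-0.343) and Cd53 (1.462), and heart 5 for Eln (-1.11).

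Among list means, combination heart 1 stood apart for heat shock (1.064), proteasome (0.4592), basement membrane (-0.5661), smooth muscle (-0.4026) and calcium cycling (-0.2122) genes, and combination heart 3 for glucocorticoid receptor targets (0.4604) and the cell cycle (-0.3212). Diabetes heart 5 stood apart for atrial (-1.262), calcium cycling (-0.3288), sodium and calcium channel (-0.2177), complex I (0.1893) and mitochondrial ribosome (0.3015) genes, and diabetes heart 3 for imprinted genes (0.2028). Control heart 1 stood apart for thymocyte (3.595), lung epithelium (2.557) and Reg lectin (1.327) genes, and control heart 6 for immediate early (0.8763) and hypoxia (0.4698) genes. HF diet heart 4 stood apart for lung epithelium (0.5736), interstitial matrix (0.156) and endothelin system (0.1016) genes, and HF diet heart 3 for atrial genes (-0.1995).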

How the results depend on the processing

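Counts past the threshold moved with the processing, and the cause was not tested. For the interaction (1265) the count was 1924 without the 3 hearts that stand apart, 785 with a Welch type contrast, 819 with hearts of a code stem averaged and 594 over probe sets with 1 symbol, where fewer were tested. For diabetes under control diet (89) the same settings except stems gave 193, 51 and 27, an erythroid covariate 292 and a replicate block 167. For diabetes under HF diet (1679) it was 708 without the 3 hearts, 812 with the Welch type contrast, 627 with array weights, 868 with arrays scaled to one SD, 716 with the erythroid covariate, 1042 with stems averaged, 846 over 1-symbol probe sets and 879 after quantile normalization. Sorted by sign alone, canceled probe sets were 152 and reversed 1096. Without the 3 hearts, over 1-symbol probe sets and after quantile normalization, those beyond the sum were 4, 9 and 4, those short of it 6, 0 and 6, and the reversed 105, 92 and 76; the canceled were 1809 and 493 in the first and second of these. Leaving out 1 heart gave 623 to 2600 for the interaction, 68 to 140 and 576 to 2995 for diabetes under control and HF diet, and 3 to 116, 2 to 11, 563 to 2080 and 53 to 820 for probe sets beyond, short of, canceled and reversed. Of all interaction calls 40.9% lay above the sum, 48.2% after quantile normalization and 48.1% among 1-symbol probe sets; of those for diabetes under HF diet 49.3% were higher, 61.7% among 1-symbol probe sets.

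Same-numbered hearts did not pair: over 31 pairs r ran from -0.42 to 0.56. With a replicate block 1113 probe sets passed for the interaction, against 1091 on the same hearts without it. No named gene changed direction in any fit, which is not a test, since the fits share most hearts with the one that chose these genes. Leaving out 1 heart ended 294 of 1633 gene calls and the other settings 206 of 923, and 19 of 71 genes passed under every setting. The standard errors, 0.147 at the median, limit what 5 combination hearts on 3 stems can show.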
